A study of Sus scrofa with 23 samples.

Results

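The genes described here build the myosin of the thick filament of striated muscle: the heavy chains MYH1, MYH2, MYH4 and MYH7, the essential light chains MYL1, MYL3 and MYL4, and the myosin-binding protein MYBPC1. They were chosen by name, as every probe set whose single gene symbol in the array's annotation is one of these 8 genes. Of the 8 genes, 6 had a probe set, each 1, among 6765 genes with a single symbol and 24123 probe sets in all. MYH1 and MYH4 had no probe set with that single symbol and were not analysed here.

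The 23 samples, each on 1 porcine Affymetrix array, came from progeny of German Landrace gilts, with 5 samples at 94 days post coitum (94 dpc, fetal) and 6 each at 1, 28 and 188 days after birth (dpn, days post natum). All dams had been fed a low-protein diet during gestation, so every sample shares that exposure, and stage is the only factor compared. The offspring came from 3 gilts per stage, and the labels do not say which sample came from which gilt, so littermates may count as separate samples and p-values may be too small. Each value is the signal of a probe set, a scaled brightness on a linear scale. The labels call the tissue liver, while the title of the series speaks of muscle.

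Skeletal muscle transcripts were bright at every stage. Of 13 listed skeletal muscle markers 11 were measured, and their summed signal was lowest at 94 dpc (245366 to 282208), followed by 1 dpn (324822 to 592422), 28 dpn (393289 to 637774) and 188 dpn (570424 to 705410). The sum of 15 of 17 markers of hepatocytes, the main cells of the labelled tissue, reached at most 39978 on any array, and that of 6 of 10 heart markers at most 4684. Single hepatocyte genes were bright on some arrays, with AHSG up to 13295 and APOA1 up to 10556 at 94 dpc and ALB up to 9137 at 188 dpn. Sums of different lists rest on different probe sets, so their levels do not measure the share of each cell type. No marker was at 0 on any array. In such bulk samples, fewer cells of a type and less RNA per cell cannot be told apart.

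In the thick filament, heavy chains form the rod and the motor head, and each head carries an essential light chain that stiffens its lever arm. The isoforms differ between fibre types. MYH7 is the slow heavy chain, also made in the heart, while MYH2, MYH1 and MYH4 are the fast IIa, IIx and IIb chains. MYL1 is the essential light chain of fast fibres and MYL3 that of slow fibres and of the ventricle. MYL4 is the embryonic light chain, made in fetal skeletal muscle and in the atrium. MYBPC1, the slow form of myosin-binding protein C, ties myosin into the filament and modulates its contact with actin. Fetal muscle is known to exchange embryonic isoforms for adult ones around birth.

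Among the members, the embryonic light chain MYL4 was 24.0-fold lower at 1 dpn than at 94 dpc and low at each later stage. The slow light chain MYL3 was 3.74-fold higher at 1 dpn than at 94 dpc. The fast heavy chain MYH2 was 12.0-fold higher at 28 dpn than at 1 dpn, with no call in the step before or after. MYH7 and MYL1 differed less, by 2.43-fold and 1.90-fold between 188 dpn and 94 dpc. With all samples, MYBPC1 had its lowest mean at 1 dpn and was called lower there than at 94 dpc. On 3 arrays at 1 dpn a control transcript's ends had a low ratio. Without them the MYBPC1 log2 change at 1 dpn against 94 dpc was -0.09 and not called. Folds are on the scale of log2(signal + 16), tested with limma over 23999 probe sets and called at a Benjamini-Hochberg adjusted p under 0.05.

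**Figure D1:**
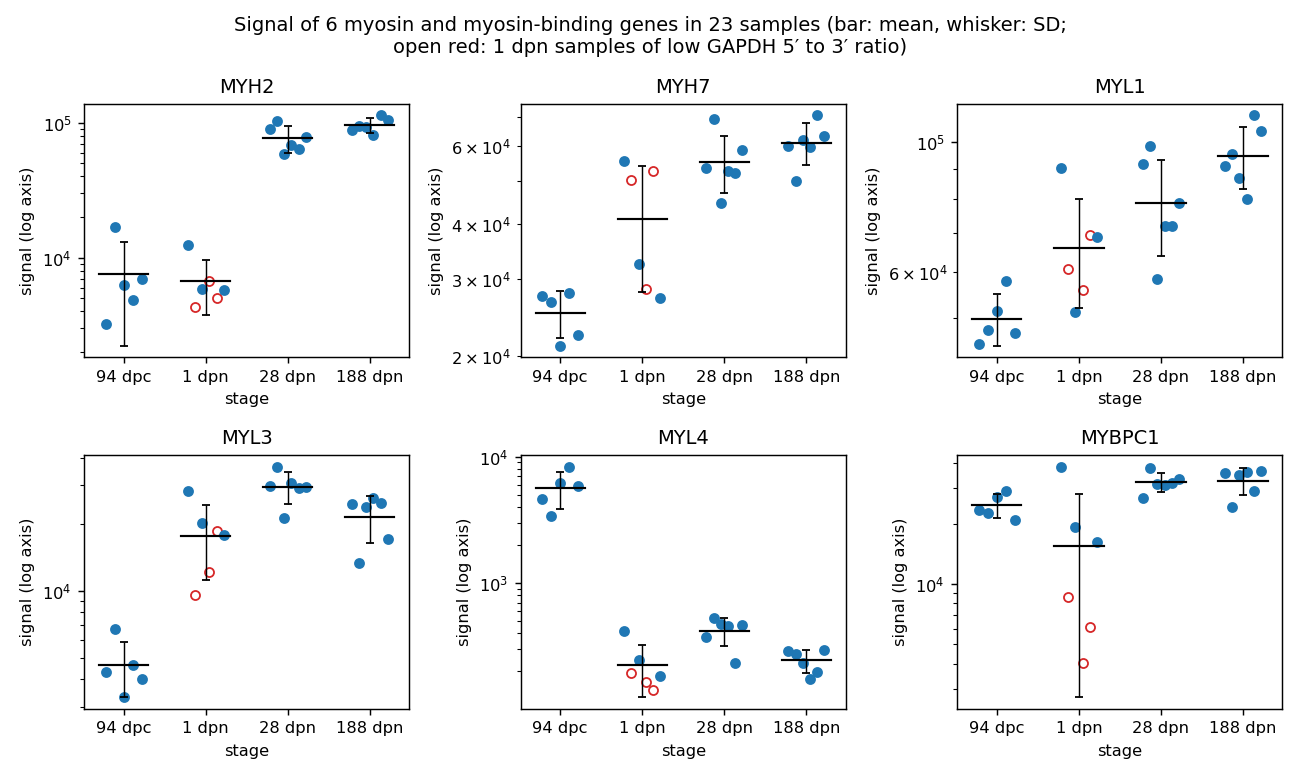
Signal (log axis) of the 6 measured genes in each of the 23 samples, by stage. Points are samples, bars are means and whiskers SDs (n = 5 at 94 dpc, n = 6 at the other stages), and open red points mark the 3 samples at 1 dpn with a low GAPDH 5′ to 3′ ratio. MYL4 lay at or above 3406 at 94 dpc and at or below 530.2 later, and MYH2 lay at or below 16974 at 94 dpc and 1 dpn and at or above 58689 at 28 and 188 dpn.

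On 3 of the 6 arrays at 1 dpn (replicates 2, 4 and 5), the control probe sets for both ends of the GAPDH transcript gave a 5′ to 3′ ratio of 0.0868 to 0.148, against 1.09 to 1.29 on the other 20 arrays. This ratio is a usual sign of how complete the labelled RNA is. The same 3 arrays had EF1A ratios of 0.101 to 0.125, against 0.759 to 0.824 on the other arrays at 1 dpn. The ratios of Dap, a control transcript, were 0.0657 to 0.0717 on the 3 arrays and 0.174 to 0.361 on the others at 1 dpn, also without overlap. Low Dap ratios were not particular to these 3 arrays, since those at 28 dpn were 0.0511 to 0.0977 and the lowest at 94 dpc was 0.0622. Actin ratios, at 0.817 to 1.01 on the 3 arrays and 0.999 to 1.21 on the others at 1 dpn, overlapped. Members' calls in comparisons with 1 dpn are therefore given with and without these 3 samples.

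MYL4, the developmental isoform, had signals at 94 dpc of 4615, 3406, 6131, 8323 and 5891. At 1 dpn its lowest, median and highest signals were 143, 189 and 416, at 28 dpn 234, 456 and 530.2, and at 188 dpn 173, 254 and 295. All 18 samples taken after birth lay below all 5 fetal samples, and the 3 postnatal ranges overlapped one another.

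The mean MYL4 signal was 225 ± 100.2 at 1 dpn (SD, n = 6), against 5673 ± 1840 at 94 dpc (SD, n = 5). The log2 change was -4.58 ± 0.26 (SE, limma, adjusted p = 7.4e-11), the 8th largest in size of the 23999 tested. After birth the differences were smaller. The change at 28 dpn against 1 dpn was 0.90 ± 0.25 (limma, adjusted p = 0.015), and that at 188 dpn against 28 dpn was -0.73 ± 0.25 (limma, adjusted p = 0.055), which did not pass. Between 188 dpn and 94 dpc the change was -4.42 ± 0.26 (limma, adjusted p = 1.4e-11), a signal 21.3-fold lower at 188 dpn.

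Without the 3 low-ratio samples, the MYL4 change at 1 dpn against 94 dpc was -4.26 (limma, adjusted p = 5.9e-08). That at 28 dpn against 1 dpn was then 0.58 and did not pass (limma, adjusted p = 0.23, the highest of all alternatives, whose lowest was 0.0020). MYL4 signals at 1 dpn were 143, 164 and 194 in the 3 low-ratio samples and 184, 247 and 416 in the other 3. After birth the MYL4 probe set ranked 5357th to 11687th in brightness among 23999. Its lowest signal, 143 at 1 dpn, was close to the median signal per sample, which was 121.3 to 148.7 after birth. The postnatal MYL4 signal can therefore hold background that was not measured.

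MYL3, the essential light chain of slow fibres, had signals at 94 dpc of 4309.7, 6751, 3316, 4634 and 4003. Its lowest, median and highest signals were 9550.01, 18301 and 28198 at 1 dpn, 21331, 29722.5 and 36501 at 28 dpn, and 13396, 24233 and 26264 at 188 dpn. Every postnatal sample lay above every fetal one, and the postnatal ranges overlapped.

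The MYL3 log2 change at 1 dpn against 94 dpc was 1.90 ± 0.25 (limma, adjusted p = 7.1e-06), and 2.28 without the low-ratio samples (limma, adjusted p = 4.9e-06). MYL3 was higher again at 28 dpn than at 1 dpn, by 0.80 ± 0.24 (limma, adjusted p = 0.024). Without the low-ratio samples that step was 0.42 and did not pass (limma, adjusted p = 0.31, within a range over all alternatives of 0.0057 to 0.42). The mean signal was highest at 28 dpn, at 29560 ± 4852 (SD, n = 6), a mean 6.51-fold that at 94 dpc. The change at 188 dpn against 28 dpn was -0.47, with a 95% interval of -0.97 to 0.03 (limma, adjusted p = 0.23).

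MYH2, the fast IIa heavy chain, had signals at 94 dpc of 3208, 16974, 6243, 4829 and 6925. At 1 dpn the lowest, median and highest were 4305, 5797 and 12416.5, at 28 dpn 58689, 73159 and 103288, and at 188 dpn 81075, 93783 and 113598. The ranges at 94 dpc and 1 dpn overlapped, as did those at 28 and 188 dpn, and no sample of the later pair of stages came within the range of the earlier pair.

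The mean MYH2 signal was 76921 ± 17130 at 28 dpn, against 6684 ± 2926 at 1 dpn (SD, n = 6 each). The log2 change was 3.58 ± 0.29 (limma, adjusted p = 3.7e-08), the 16th largest in size of all probe sets in that comparison, and 3.33 without the low-ratio samples (limma, adjusted p = 1.1e-05). At 1 dpn against 94 dpc the change was -0.05, with a 95% interval of -0.68 to 0.59 (limma, adjusted p = 0.94). This small value was 0.30 without the fetal sample at 16974 and 0.21 without the low-ratio samples, so it had no settled sign. The change at 188 dpn against 28 dpn was 0.34, with an interval of -0.27 to 0.95 (limma, adjusted p = 0.52).

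Both earlier stages held 1 MYH2 sample above the rest. At 94 dpc this was the sample at 16974, where the other 4 reached at most 6925, and at 1 dpn the sample at 12416.5, where the other 5 reached at most 6749.6. MYH2 was 14.7-fold higher at 188 dpn than at 94 dpc (limma, adjusted p = 9.7e-10). In the RefSeq annotation of the pig assembly Sscrofa11.1, MYH4, MYH1 and MYH2 are adjacent genes in that order. The transcripts of these fast chains are known to be alike in sequence, and how far the MYH2 probe set also reads MYH1 or MYH4 transcripts was not tested.

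MYH7, the slow heavy chain, had signals at 94 dpc of 27449, 26539.8, 21132, 27894.5 and 22400.4. Its lowest, median and highest signals were 27106, 41356 and 55608.5 at 1 dpn, 44637, 53090.0 and 69383 at 28 dpn, and 50165.5, 61046 and 70605 at 188 dpn. Both later stages lay wholly above 94 dpc, and the 1 dpn range reached into all the others.

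MYH7 was higher at 1 dpn than at 94 dpc by 0.66 ± 0.20 on the log2 scale (limma, adjusted p = 0.016). Without the low-ratio samples the change was 0.55 (limma, adjusted p = 0.062), and after quantile normalization between arrays it was 0.20 (limma, adjusted p = 0.46). The range of that p over all alternatives was 0.00077 to 0.46. Between 28 dpn and 1 dpn the change was 0.48 ± 0.19 (limma, adjusted p = 0.087), and 0.58 without the low-ratio samples (limma, adjusted p = 0.068). At 188 dpn against 1 dpn it was 0.63 with all samples (limma, adjusted p = 0.014) and 0.73 without the low-ratio ones (limma, adjusted p = 0.012). Over the whole span, 188 dpn against 94 dpc, it was 1.28 ± 0.20 (limma, adjusted p = 1.4e-05), and it stayed called in every alternative run (adjusted p up to 0.0015).

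MYL1, the essential light chain of fast fibres, had signals at 94 dpc of 45088, 47652, 51408, 57939 and 47223. At 1 dpn the lowest, median and highest were 51185, 64706 and 90387.5, at 28 dpn 58427, 75411 and 98399.7, and at 188 dpn 79911, 93166 and 111288. The range moved upward from stage to stage with overlap between neighbours, and 28 and 188 dpn lay above 94 dpc without overlap. MYL1 ranked 3rd to 27th in brightness on every array.

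No single step of MYL1 passed the test. Its log2 change was 0.39 ± 0.17 at 1 dpn against 94 dpc (limma, adjusted p = 0.11), 0.25 ± 0.16 at 28 dpn against 1 dpn (limma, adjusted p = 0.33) and 0.28 ± 0.16 at 188 dpn against 28 dpn (limma, adjusted p = 0.30). Without the low-ratio samples the first of these was 0.46 (limma, adjusted p = 0.11) and the second 0.18 (limma, adjusted p = 0.62). The change at 188 dpn against 1 dpn passed with all samples, at 0.54 (limma, adjusted p = 0.015), and not without the low-ratio ones, at 0.46 (limma, adjusted p = 0.097). Over the whole span, 188 dpn against 94 dpc, it was 0.92 ± 0.17 (limma, adjusted p = 0.00014). That change was 0.15 after quantile normalization (limma, adjusted p = 0.36, the highest of its alternatives, whose lowest was 1.4e-06). Quantile normalization gives each rank the same value on all arrays, and MYL1 ranked 3rd to 27th throughout. It thus holds so bright a probe set near a constant and cannot decide whether MYL1 rose. On the deposited scale all 11 measured skeletal muscle markers were also called higher at 188 dpn than at 94 dpc, and 6 after quantile normalization. Of 6765 genes 1316 and 1578 were higher in these 2 fits. Whether the MYL1 change is separate from that of other bright genes was not tested.

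MYBPC1, the slow myosin-binding protein C, had signals at 94 dpc of 23479.6, 22487, 27049, 29076 and 20951. Its lowest, median and highest signals were 4057, 12406 and 38449.5 at 1 dpn, 26954, 31734 and 38016 at 28 dpn, and 24304, 35302 and 36349 at 188 dpn. The 1 dpn samples spanned 9.48-fold from lowest to highest, and their range covered those of all other stages.

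At 1 dpn the 3 samples with a low GAPDH ratio had MYBPC1 signals of 4057, 6083 and 8612, and the other 3 had 16201, 19262 and 38449.5. The 2 sets did not overlap. With all samples, MYBPC1 was lower at 1 dpn than at 94 dpc by a log2 change of -1.06 ± 0.37 (limma, adjusted p = 0.035) and higher at 28 dpn than at 1 dpn by 1.45 ± 0.35 (limma, adjusted p = 0.0054). Without the 3 samples these changes were -0.09 (limma, adjusted p = 0.82) and 0.48 (limma, adjusted p = 0.18). Over all alternatives the p of the first ran from 0.0012 to 0.84 and that of the second from 0.00011 to 0.30.

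MYBPC1 was not called between the stages other than 1 dpn. Its log2 change at 188 dpn against 94 dpc was 0.41, with a 95% interval of -0.35 to 1.17 (limma, adjusted p = 0.43), and at 188 dpn against 28 dpn 0.02, with an interval of -0.71 to 0.74 (limma, adjusted p = 0.98). These intervals draw on the spread at all stages, including the wide one at 1 dpn. Fitted without the low-ratio samples, 188 dpn against 94 dpc stayed at 0.41 ± 0.19 (SE, limma, adjusted p = 0.10). The change at 188 dpn against 1 dpn was 1.47 with all samples (limma, adjusted p = 0.0024) and 0.50 without the low-ratio samples (limma, adjusted p = 0.12). MYBPC1 was the member whose call rested most on those samples, as the plot of comparisons with and without them shows.

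**Figure D2:**
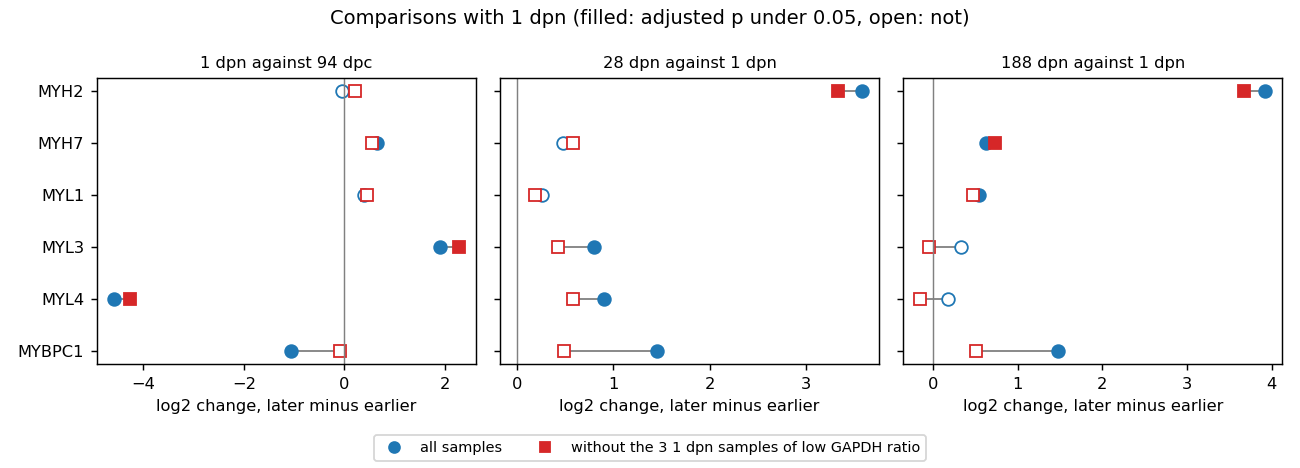
Log2 change of the 6 measured genes in the 3 comparisons that use 1 dpn, with all samples (circles) and without the 3 low-ratio samples (squares). Filled symbols have an adjusted p under 0.05. For MYBPC1 the change was -1.06 with all samples and -0.09 without at 1 dpn against 94 dpc, and 1.45 and 0.48 at 28 dpn against 1 dpn, while MYL4, MYL3 and MYH2 kept their largest changes.

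By comparison, 4 of the 6 measured members were called at 1 dpn against 94 dpc, MYL3 and MYH7 higher and MYL4 and MYBPC1 lower, where 25.9% of all probe sets were called. At 28 dpn against 1 dpn 4 were called, all higher (MYH2, MYBPC1, MYL4 and MYL3), with 17.2% of all probe sets called and 10.1% called higher. Without the 3 low-ratio samples these counts were 2 (MYL3 and MYL4) and 1 (MYH2), with 6007 and 3217 of the 23999 probe sets called. Between 188 dpn and 28 dpn limma called 0 members, with 13.8% of all probe sets called. There 1 member, MYL4, had an unadjusted p under 0.05 (0.0081), and 1 was called in several alternative fits.

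Across longer spans, 5 of 6 were called at 188 dpn against 94 dpc (4 higher, MYL4 lower, background 36.7%) and the same 5 at 28 dpn against 94 dpc (background 23.6%), 2 comparisons that share the fetal samples. Against 1 dpn, 188 dpn had 4 members called, all higher (MYH2, MYBPC1, MYH7 and MYL1), with 29.2% of all probe sets called and 13.6% called higher. Without the low-ratio samples 2 of these remained called, MYH2 and MYH7, with 5635 of the 23999 probe sets called.

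**Figure D3:**
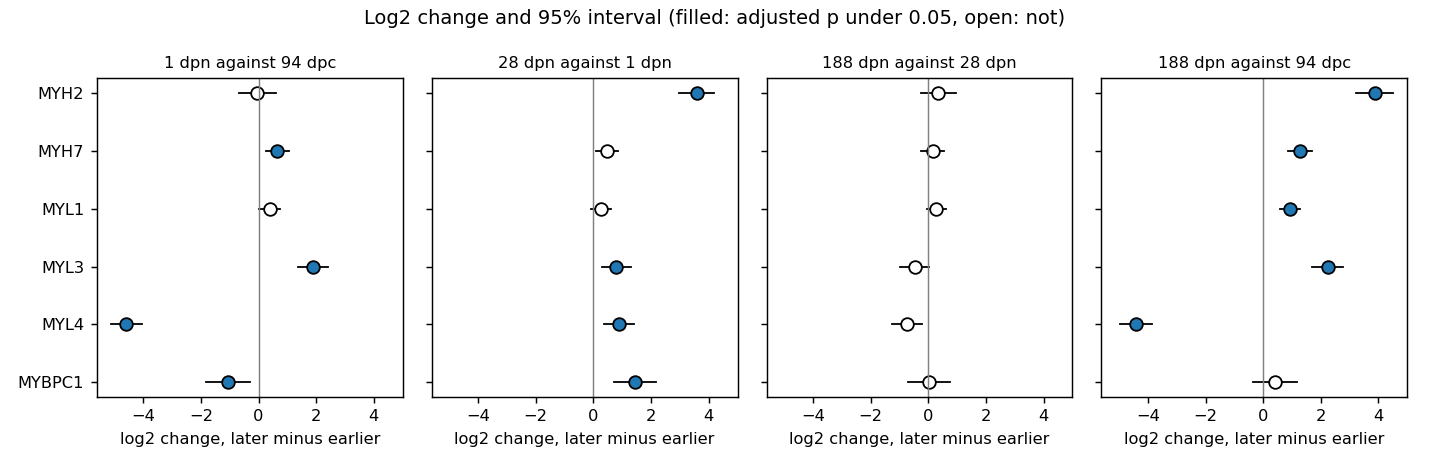
Log2 change, later minus earlier stage, of the 6 measured genes in 4 comparisons, with the 95% interval of the limma fit. Filled points have an adjusted p under 0.05. In the first 3 panels, which are the successive steps, the farthest from 0 are MYL4 at 1 dpn against 94 dpc (-4.58) and MYH2 at 28 dpn against 1 dpn (3.58). Over the whole span MYL4 lay at -4.42 and MYH2 at 3.88, and no point is filled at 188 dpn against 28 dpn.

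The isoforms were also set against each other within each array, as the difference of 2 log2 values, which a scaling of the whole array cannot change. Different probe sets bind with different strength, so only the change of a difference between stages can be read, not its level. The difference of the fast MYH2 to the slow MYH7 was -1.94 ± 0.93 at 94 dpc and -2.64 ± 0.65 at 1 dpn, then 0.46 ± 0.17 at 28 dpn and 0.65 ± 0.16 at 188 dpn (SD). Each sample at 28 and 188 dpn lay at or above 0.28, and each earlier sample at or below -0.64.

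The difference of the embryonic MYL4 to the fast MYL1 was -3.19 ± 0.38 at 94 dpc and -8.16 ± 0.44 at 1 dpn, then -7.52 ± 0.45 at 28 dpn and -8.53 ± 0.30 at 188 dpn (SD). Its fetal values did not overlap with any postnatal value. The highest value at 188 dpn was -8.22, and the lowest at 28 dpn was -8.17, so these stages did not overlap either.

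The difference of the slow light chain MYL3 to the slow heavy chain MYH7 was -2.47 ± 0.29 at 94 dpc and -1.23 ± 0.66 at 1 dpn, then -0.91 ± 0.11 at 28 dpn and -1.52 ± 0.30 at 188 dpn (SD). At 1 dpn the 3 low-ratio samples had -2.39, -1.23 and -1.50, all below the other 3, which had -0.98, -0.68 and -0.59 and so lay near the 28 dpn values. MYL3 and MYH7 thus changed unequally between 94 dpc and each later stage. At 188 dpn the values ran from -1.90 to -1.19, against -1.06 to -0.77 at 28 dpn, with no overlap. MYL3 minus MYL1, slow against fast light chain, was -3.47 ± 0.42 at 94 dpc and -1.95 ± 0.45 at 1 dpn, then -1.41 ± 0.14 at 28 dpn and -2.16 ± 0.47 at 188 dpn (SD), and its ranges at the last 2 stages overlapped. At 1 dpn this difference was -2.66, -2.20 and -1.90 in the low-ratio samples and -1.68, -1.33 and -1.94 in the other 3.

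For MYBPC1 minus MYH7, both of slow fibres, the difference was -0.03 ± 0.25 at 94 dpc and -1.75 ± 1.19 at 1 dpn, then -0.77 ± 0.16 at 28 dpn and -0.90 ± 0.21 at 188 dpn (SD). At 1 dpn the 3 low-ratio samples had -2.54, -2.81 and -3.11, and the other 3 had -0.53, -0.75 and -0.74. Those 3 lay near the values at 28 and 188 dpn and below every fetal value, the lowest of which was -0.24.

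**Figure D4:**
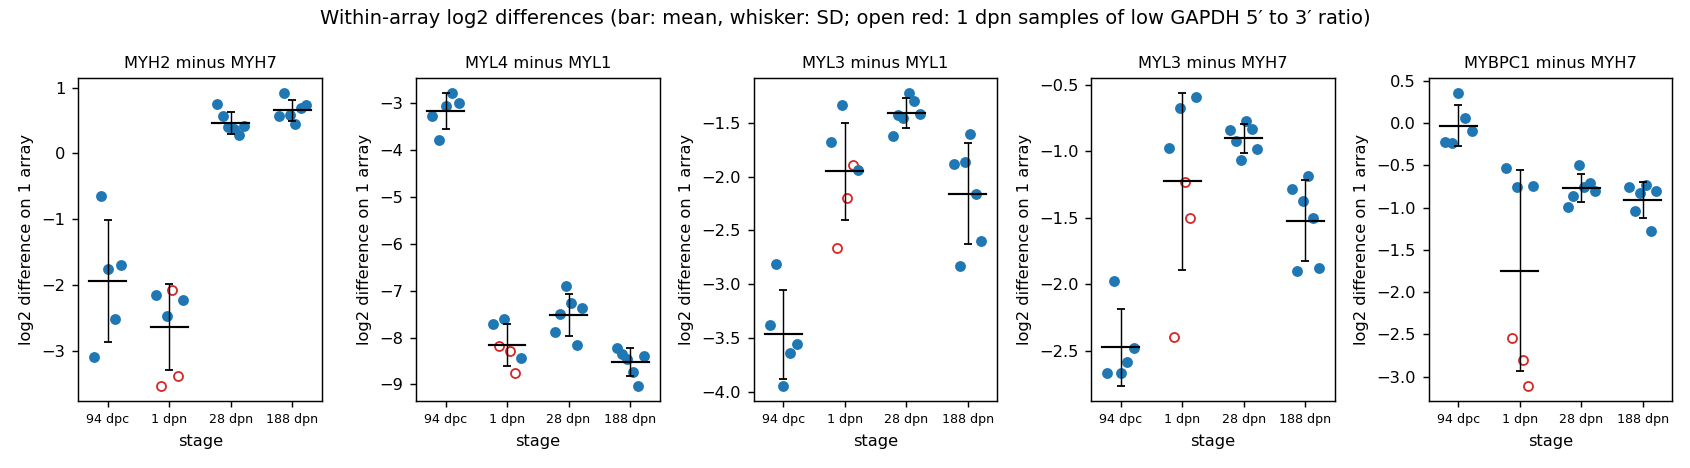
Log2 difference of 2 genes on the same array for the 5 measured pairs, by stage. Points are samples, bars are means and whiskers SDs (n = 5 at 94 dpc, n = 6 at the other stages), and open red points are the 3 low-ratio samples. MYH2 minus MYH7 was -0.64 or less at 94 dpc and 1 dpn and 0.28 or more at 28 and 188 dpn, and MYL4 minus MYL1 was -3.80 or more at 94 dpc and -6.91 or less at each later stage.

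Genes whose log2 signal ran most like each member's over the 23 samples were looked up among 4957 genes above the median signal. For MYH2 these were PGM1 (Pearson r = 0.956), BPGM (0.956) and AP2B1 (0.954). For MYH7 they were TNNT1 (0.943), NEB (0.939) and VAPA (0.916), and for MYL1 UBB (0.981), SLN (0.978) and TPT1 (0.969). For MYL3 they were LOC100156967 (0.966), CS (0.953) and NDUFV2 (0.951), for MYL4 TMEM131L (0.939), SPARCL1 (0.937) and CDO1 (0.935), and for MYBPC1 DCTN2 (0.923), BTF3 (0.917) and ZNF706 (0.916). All these values share the 4 stages and the arrays, so they describe a common course over stages.

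The remaining thick filament genes were followed from a list of 19, of which 5 were measured. They are the regulatory light chains MYL2 (slow) and MYLPF (fast), the M-line proteins MYOM1 and MYOM2, which cross-link myosin rods, and titin (TTN), the elastic ruler of the sarcomere. All 5 were higher at 188 dpn than at 94 dpc, with log2 changes of 0.85 for MYL2, 0.73 for MYLPF, 1.32 for MYOM1, 1.10 for MYOM2 and 1.45 for TTN. Their median was 1.10, against -0.08 over all genes, of which 19.5% were called higher. After quantile normalization 2 of the 5 were called higher, with a median of 0.57, where 1578 of 6765 genes were higher.

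The list median was 0.15 at 1 dpn against 94 dpc, 0.85 at 28 dpn against 1 dpn and 0.14 at 188 dpn against 28 dpn. MYLPF took another course, with 0.36, 0.03 and 0.34 in these steps. At 28 dpn against 1 dpn 4 of the 5 were called higher, with 13.5% of all genes higher and 10.6% lower. It was 3 of the 5 without the low-ratio samples, where 706 of 6765 genes were higher and 614 lower. Between 188 dpn and 28 dpn limma called 0, with 5.78% of all genes higher and 12.5% lower, and 0 also without the low-ratio samples, after quantile normalization and after centring. There 1 of the 5 had an unadjusted p under 0.05. At 1 dpn against 94 dpc 1 was called, MYOM2, lower by a log2 change of -1.06 (limma, adjusted p = 0.029), with 19.4% of all genes lower and 13.7% higher. MYOM2 was not called there without the 3 low-ratio samples. In that step the list median was -0.25 after quantile normalization, with 1 called lower, and 0.42 after centring, with 2 called higher.

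Companion genes of fast fibres, 11 measured of 15 listed, were all higher at 188 dpn than at 94 dpc, with a median log2 change of 1.62, where 19.5% of all genes were higher. After quantile normalization 8 of the 11 were called higher, with a median of 1.00. The largest were the calcium pump ATP2A1 (3.87), glycerol-3-phosphate dehydrogenase GPD1 (3.77), phosphofructokinase PFKM (3.66) and glycogen phosphorylase PYGM (2.85). By step, 5 were higher at 1 dpn than at 94 dpc (13.7% of all genes), 7 at 28 dpn than at 1 dpn (13.5%) and 0 at 188 dpn than at 28 dpn (5.78%). In the last step 2 of the 11 had an unadjusted p under 0.05. Without the low-ratio samples the 3 counts were 7, 3 and 1, where 967, 706 and 558 of 6765 genes were higher. At 1 dpn against 94 dpc the median was 0.46 as deposited and 0.09 after quantile normalization, with 4 called.

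Companion genes of slow fibres, 10 measured of 14, were more mixed at 188 dpn against 94 dpc: 6 higher and 2 lower, with a median of 0.94, where 19.5% of all genes were higher and 27.4% lower. TNNT1, the slow troponin T, was higher by 1.40 and phospholamban PLN, the brake of the calcium pump, by 1.06. Lower were the calcium store protein CASQ2, by -4.41, and the slow tropomyosin TPM3, by -1.83. At 1 dpn against 94 dpc 2 were higher and 1 lower (13.7% and 19.4% of all genes), at 28 dpn against 1 dpn 3 were higher and 0 lower (13.5% and 10.6%), and at 188 dpn against 28 dpn 0 were higher and 3 lower (5.78% and 12.5%). Without the low-ratio samples the first of these was 4 higher and 1 lower and the second 1 higher and 2 lower. Of 6765 genes 967 were then higher and 1266 lower in the first step, and 706 and 614 in the second.

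Sarcomere and junction genes of fetal or heart muscle, the class that MYL4 belongs to by its known role, had 7 measured of 13. Of these 7, 4 were lower and 2 higher at 188 dpn against 94 dpc, with a median of -1.55, where 27.4% of all genes were lower and 19.5% higher. TNNT2, the cardiac troponin T that fetal skeletal muscle also makes, changed by -5.32 and ACTC1, the cardiac actin, by -5.25. CHRNA1, a subunit of the acetylcholine receptor, changed by -2.39 and the adhesion molecule NCAM1 by -1.55. ACTC1 took another course from MYL4's: its signal was 53958 ± 9479 at 1 dpn, against 37481 ± 4400 at 94 dpc (SD, limma, adjusted p = 0.13), and 986.5 ± 235 at 188 dpn, against 33815 ± 13638 at 28 dpn (SD, limma, adjusted p = 1.9e-12). At 1 dpn against 94 dpc 3 of the list were lower and 0 higher, with 19.4% and 13.7% of all genes. Leaving out the low-ratio samples, 1 was higher there, where 967 of 6765 genes were higher and 1266 lower. At 28 dpn against 1 dpn 2 were higher and 1 lower (13.5% and 10.6% of all genes). Without the low-ratio samples limma called 0 in that step, with 2 at an unadjusted p under 0.05. There 706 of 6765 genes were higher and 614 lower.

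Heart markers bear on MYL4, MYL3 and MYH7, which heart muscle makes as well. TNNT2 had signals of 2534 to 4088 at 94 dpc and carried most of the fetal marker sum of 2981 to 4684, while the natriuretic peptide NPPA stayed at or below 166 and NPPB at or below 224 in every sample. TNNI3, the cardiac troponin I, was brighter, at 86.4 to 427 at 94 dpc and up to 825 at 1 dpn. RYR2 reached at most 69.4 and GATA4 at most 124, both at 1 dpn. The part of other cell types in the members' changes was not tested. Smooth muscle markers (5 of 7 measured) summed to 6534 to 9483 at 188 dpn and 22506 to 27170 at 94 dpc, and connective tissue matrix genes (5 of 7) to 8151 to 13455 at 188 dpn and 35351 to 53464 at 94 dpc, and so moved in the same direction as MYL4. Adipocyte markers (5 of 7) summed to 3328 to 5215 at 188 dpn and 4796 to 6959 at 94 dpc, and red blood cell genes (4 of 6) to 613 to 861 at 188 dpn and 1279 to 1774 at 94 dpc. Single genes carried most of some sums: ACTA2 that of smooth muscle (17835.5 to 22161 at 94 dpc) and FABP4 that of adipocytes (3645 to 5629). DCN carried a large part of the matrix sum at 94 dpc (21390.5 to 26724) and most of it at 188 dpn (6773 to 10567). Called lower at 188 dpn than at 94 dpc were 4 of 5 smooth muscle, 4 of 5 matrix, 1 of 5 adipocyte and 4 of 4 red blood cell genes. None was called higher, and 27.4% of all genes were lower.

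Genes that fold or phosphorylate myosin, 10 measured of 15, had 2 higher, 3 lower and a median of 0.05 at 188 dpn against 94 dpc (-0.12 after quantile normalization), shares close to those of all genes (19.5% higher, 27.4% lower). PPP1CB, the catalytic subunit of myosin phosphatase, was higher by 1.42, and PPP1R12A, its myosin-targeting subunit, was lower by -1.21. TRIM55, a ubiquitin ligase of the sarcomere, changed by -1.15 and the myosin chaperone UNC45A, which is not specific to muscle, by -0.82. In the 3 successive steps 1, 1 and 1 were higher and 0, 1 and 1 lower, against 13.7%, 13.5% and 5.78% of all genes higher and 19.4%, 10.6% and 12.5% lower. Leaving out the low-ratio samples, 1, 1 and 1 were higher and 1, 1 and 2 lower. In that fit 967, 706 and 558 of 6765 genes were higher and 1266, 614 and 1060 lower.

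Regulators of muscle and fibre type, 19 measured of 31, had 6 higher and 3 lower at 188 dpn against 94 dpc, with a median of 0.12, where 19.5% of all genes were higher and 27.4% lower. MYF5 and MYOD1, which commit cells to muscle, changed by -3.29 and -2.16. MYF6, the factor most linked to mature fibres, was higher by 2.03, and PPP3CA, the calcineurin subunit that signals in slow fibres, by 1.44. In the 3 successive steps 1, 4 and 3 were higher and 4, 4 and 1 lower, beside the same shares of all genes. Leaving out the low-ratio samples, 1, 3 and 3 were higher and 4, 1 and 2 lower. Among 6765 genes 967, 706 and 558 were then higher and 1266, 614 and 1060 lower.

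Non-muscle myosin genes, 9 measured of 15, ran opposite to most members at 188 dpn against 94 dpc, with 0 higher, 5 lower and a median of -0.71, where 27.4% of all genes were lower. MYL6, the essential light chain outside striated muscle, changed by -2.30, the non-muscle heavy chain MYH9 by -1.67, MYO1C by -1.02 and the regulatory light chain MYL9 by -0.73. After quantile normalization 2 of the 9 were called lower, with a median of -0.45, a share close to that of all genes (1536 of 6765 lower). By step 2, 1 and 0 were higher and 2, 1 and 3 lower. Of all genes 13.7%, 13.5% and 5.78% were then higher and 19.4%, 10.6% and 12.5% lower. Without the low-ratio samples 2, 1 and 0 were higher and 2, 2 and 3 lower. In that fit 967, 706 and 558 of 6765 genes were higher and 1266, 614 and 1060 lower.

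**Figure D5:**
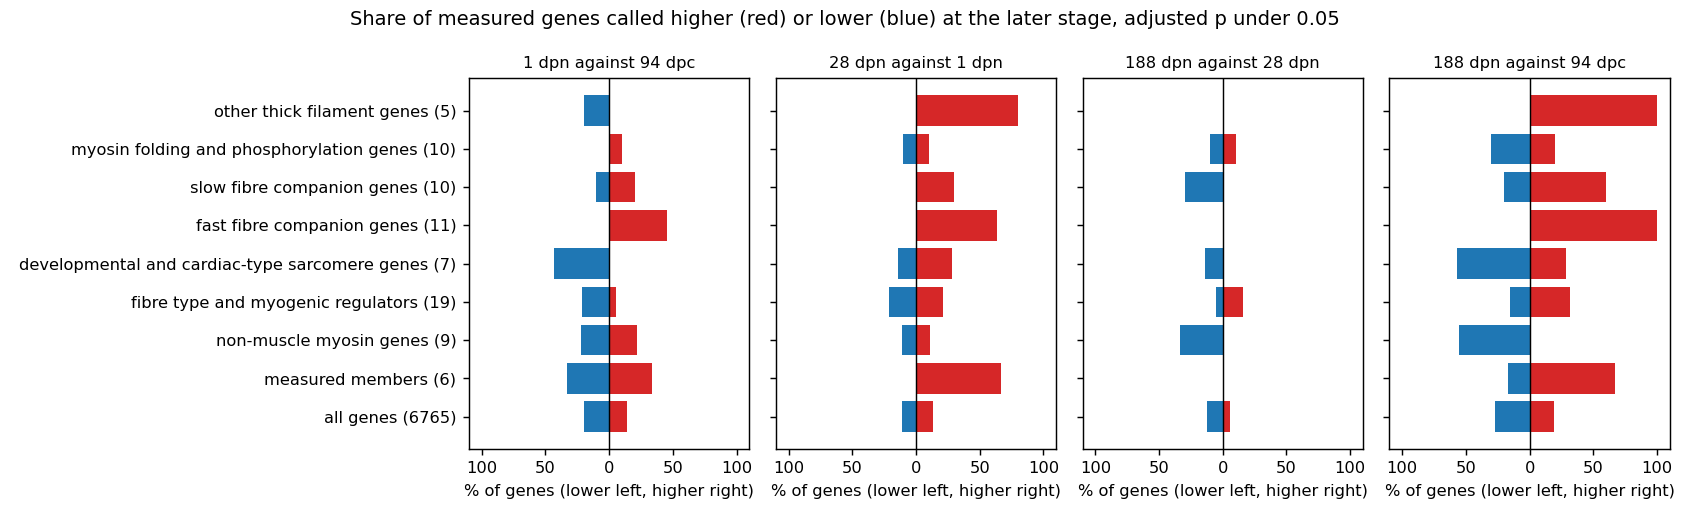
Share of the measured genes of each list called higher (right, red) or lower (left, blue) at the later stage in 4 comparisons, with the number measured in brackets. At 188 dpn against 94 dpc all 5 other thick filament genes and all 11 fast fibre companions were higher, against 19.5% of all genes, and 5 of 9 non-muscle myosin genes were lower, against 27.4%.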

How the data were processed

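RNA labelled from 0.5 µg total RNA was hybridised to 23 arrays, 1 per sample, per the labels' protocols. The deposited values are intensity signals on a linear scale, 1 per probe set. The method that summarised them is not given in the sources used here, although the submitters' processing notes name GCOS 1.1.1. The 2% trimmed mean of each array was 500.1 to 500.2, so the arrays had been scaled to a common mean before they were deposited. No detection calls were used. For arrays, the number of samples limits the precision. Fits were made in R 4.3.3 with limma 3.58.1 (lmFit and eBayes, 1 mean per stage, all 23 samples together) on log2(signal + 16), a log2 scale computed here from the deposited intensity. The pseudocount of 16 makes folds of dim probe sets too small. P-values are two-sided and adjusted by the Benjamini-Hochberg method over 23999 probe sets, leaving out 124 control probe sets. The fit was checked on simulated data. Of the probe sets tested, 10069 had 1 gene symbol, 198 several and 13732 none, and none was named from several. For genes other than the members, the probe set with the highest mean log2 value stands for the gene. The members and gene lists were chosen with earlier results of these data known. The genes named were all members, all measured genes of the thick filament list, up to 4 called genes of each other list with the largest change at 188 dpn against 94 dpc, and the 3 genes most like each member. Replicate numbers follow the order of the samples and pair nothing. Also run were quantile normalization, subtraction of each array's median, pseudocounts of 1 and 64, leaving out dim probe sets, fitting only the 2 stages compared, a trended robust variance, array weights, leaving out the 3 samples at 1 dpn with a GAPDH ratio under 0.5 or taking the ratio as a covariate, and leaving out each sample in turn.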

Additional observations from a re-analysis of the deposited data

How the results depend on the processing

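Of 774 refits of the 36 member comparisons, 706 kept their direction and their side of the threshold, 35 lost a call, 15 gained one and 18 changed sign. The count of members called at 1 dpn against 94 dpc (4) was 2 with only the 2 stages compared, without the low-ratio samples or with the GAPDH ratio as a covariate, and 3 to 4 leaving out 1 sample. It was 3 with quantile normalization and 5 without dim probe sets or with a trended robust variance, where MYL1 was gained. At 28 dpn against 1 dpn (4) it was 2 with only the 2 stages, 1 without the low-ratio samples, 1 with the covariate, and 3 to 5 leaving out 1 sample. It was 5, with MYH7 gained, under quantile normalization, without dim probe sets and with a trended robust variance. At 188 dpn against 28 dpn (0) it was 1, MYL4, with a pseudocount of 64, without dim probe sets, with only the 2 stages, a trended robust variance, array weights, without the low-ratio samples and with the covariate, and 0 to 1 leaving out 1 sample (1 without 28 dpn replicate 5). At 188 dpn against 1 dpn (4) it was 2 with only the 2 stages, without the low-ratio samples and with the covariate. At 188 dpn and at 28 dpn against 94 dpc it stayed at 4 to 5. The number called among all probe sets moved as well. Leaving out the low-ratio samples took it from 6223 to 6007 at 1 dpn against 94 dpc and from 4121 to 3217 at 28 dpn against 1 dpn. It went from 3315 to 4318 at 188 dpn against 28 dpn and from 7012 to 5635 at 188 dpn against 1 dpn. Member counts given without such a number cannot be read as particular to the members.

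The sign changed for MYH2 at 1 dpn against 94 dpc, which was 0.23 centred, 0.21 without the low-ratio samples, 0.25 with the covariate and -0.30 to 0.30 leaving out 1 sample. After quantile normalization MYL1 at 1 dpn against 94 dpc was -0.045, MYH7 at 188 dpn against 28 dpn -0.021 and MYBPC1 at 28 dpn against 94 dpc -0.035. MYBPC1 at 188 dpn against 28 dpn was -0.033 to 0.10 leaving out 1 sample. At 188 dpn against 1 dpn MYL3 was -0.044 without the low-ratio samples and -0.091 with the covariate, and MYL4 was -0.15 and -0.13. None of these was called. Within arrays, quantile normalization gave changes at 188 dpn against 94 dpc of -4.69 for MYL4 minus MYL1 (-5.34 as deposited) and 1.75 for MYL3 minus MYL1 (1.31 as deposited). The cause was not tested.

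Leaving out 1 sample ended the MYBPC1 call at 1 dpn against 94 dpc for replicates 1 to 4 at 94 dpc and 2, 4 and 5 at 1 dpn (log2 change -1.09 to -0.76). It ended the MYL3 call at 28 dpn against 1 dpn for 1 dpn replicates 2 and 4 and 28 dpn replicate 2 (0.64 to 0.74). MYH7 at 28 dpn against 1 dpn was called without 1 dpn replicate 1 (0.58). Over all probe sets at 188 dpn against 94 dpc, the median log2 change was -0.08 on the deposited scale, 0.08 with quantile normalization and 0.22 with centring, and 36.3%, 48.8% and 56.9% of the calls were higher. At 1 dpn against 94 dpc those shares were 31.2%, 47.3% and 59.4%, at 28 dpn against 1 dpn 59.1%, 53.3% and 49.2%, at 188 dpn against 28 dpn 33.7%, 42.5% and 46.6%, and at 28 dpn against 94 dpc 37.6%, 50.2% and 59.1%. Averaging probe sets per gene was not run, because each member has 1. No paired analysis was possible because the labels give no replicate numbers. Counts of called list genes under other settings were chosen after seeing the data.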

Other observations

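The ratio of the 5′ to the 3′ control probe sets of Dap, a control transcript, was 0.264 to 0.359 at 188 dpn, against 0.0511 to 0.0977 at 28 dpn, and these ranges did not overlap. The Dap ratio spanned 0.0657 to 0.361 among samples of 1 dpn and 0.0622 to 0.409 among those of 94 dpc. For actin, both later stages (28 dpn 1.32 to 1.61, 188 dpn 1.29 to 1.42) lay above both earlier ones (94 dpc 0.820 to 1.10, 1 dpn 0.817 to 1.21). Their part in the members' changes between these stages was not tested.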
